A study of Mus musculus with 10 samples.

Results

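Genes of the megakaryocyte cytoskeleton and of platelet signalling were followed in marrow depleted of mature lineages from 5 female and 5 male mice. They are the 9 rows of the deposited count table, out of 25178 genes, that carry the symbols F2rl2, Treml1, Cd9, Rgs18, Nrgn, Parvb, Pls1, Myl9 and Tubb1. They were chosen with the difference between the sexes in these same libraries known, so that difference is described below and not tested for them. All 9 passed the filter on low counts, which kept 14674 genes.

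The female and the male mice were of the strain C57/BL6, unperturbed, and no treatment or engineered allele is named for either sex. Their age is not stated. Marrow came from 1 hindlimb per mouse, cells with markers of mature lineages were removed on magnetic beads in both sexes, and the remaining stem and progenitor cell preparation was sequenced in bulk, with 1 library per mouse. The study asks how blood formation differs between the sexes at steady state.

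Megakaryocytes are the marrow cells that build platelets. They carry out this task with a dedicated cytoskeleton: bundles of microtubules extend long processes called proplatelets, and actin and non-muscle myosin set when and where these form. Platelets are then activated through receptors coupled to G proteins and through integrins, whose inner face is tied to actin by adaptor proteins.

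The libraries held between 20754101 and 24759687 counts. Male replicates 1 and 2 had the highest erythroid and neutrophil marker sums of all libraries. The summed level of 12 erythroid markers ran from 8371 to 13359 CPM (counts scaled to a common library size) in the females, and was 52211 and 33469 CPM in these 2 males and 15382 to 27672 CPM in the other males. Every male thus lay above every female in the erythroid sum. The globin genes Hba-a1, Hba-a2 and Hbb-bs made up 22.5%, 20.1% and 16.2% of this sum. Of the 12 markers, 3 had higher fitted values in females. The median log2 fold change of these 12 markers, female against male, was -0.58, and still -0.48 without male replicates 1 and 2. The summed level of 10 neutrophil markers was 9087 and 2839 CPM in male replicates 1 and 2, and no more than 1415 CPM in any other mouse. Log2 fold changes without these 2 libraries are therefore given for each of the 9 genes, and for some of their relatives and of the gene lists. A relative without such a value can have moved too. Rgs10 went from -0.21 to 0.04, and Rgs2 from -0.58 to -0.07. In bulk samples, fewer cells of a type and less RNA per cell cannot be told apart.

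Megakaryocyte transcripts were plain in the preparation. All 14 genes of a megakaryocyte identity list had counts, with Gp1bb alone under 0.5 CPM on average over 10 mice. Their summed level ran from 1683 to 2202 CPM in females and from 1311 to 1557 CPM in males, without overlap, led by Itga2b, Ppbp, Itgb3 and Pf4. Stem cell markers were there as well (88.5 to 99.5 CPM summed over 8 genes in females and 84.2 to 96.4 CPM in males), although Procr and Hoxb5 averaged under 0.5 CPM. Mllt3 alone made up 75.6% of this stem cell sum, so the sum says little about the other genes of the list. Endothelial markers, summed over 9 genes, ran from 55.2 to 67.5 CPM in females and from 42.2 to 53.7 CPM in males, also without overlap. The part of stem and endothelial cells in the results was not tested.

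Per length, the 9 genes spanned an 18.5-fold range. Nrgn was highest at 57.2 ± 17.2 CPM per kilobase of exon (SD, n = 10 mice), followed by Tubb1 (50.4 ± 31.3), Cd9 (42.0 ± 7.02), Treml1 (39.1 ± 6.92), Parvb (38.3 ± 5.83), Myl9 (34.0 ± 15.0) and Rgs18 (32.5 ± 6.003), all on that scale. Within these 7, no gene exceeded the next one down in more than 7 of 10 mice, so the order of neighbours is not larger than the spread. This does not hold for genes further apart, since Nrgn lay above Rgs18 in every mouse. F2rl2, at 15.7 ± 3.25 CPM per kilobase, lay below Rgs18 in 10 of 10 mice, and Pls1, at 3.09 ± 0.867 CPM per kilobase, lay below F2rl2 in 10 of 10.

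Of the 9 genes, 8 had higher fitted values in females, with a median log2 fold change of 0.30 (female against male), against -0.01 over all 14674 genes tested. A value above 0 was found for 48% of all genes. By edgeR's quasi-likelihood test 0 of the 9 passed an adjusted p under 0.05, where 0.0545% of all genes passed, and 4 of the 9 had an unadjusted p under 0.05, all higher in females, where 3.76% of all genes did so. Without male replicates 1 and 2 all 9 values were positive (median 0.43) and 7 had such a p, where 3.65% of all genes did so. The Wald test of DESeq2 called 2, Parvb and Pls1, where it called 0.219% of its genes higher in females. Since the genes were picked on this contrast, these counts are no evidence about them.

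**Figure D1:**
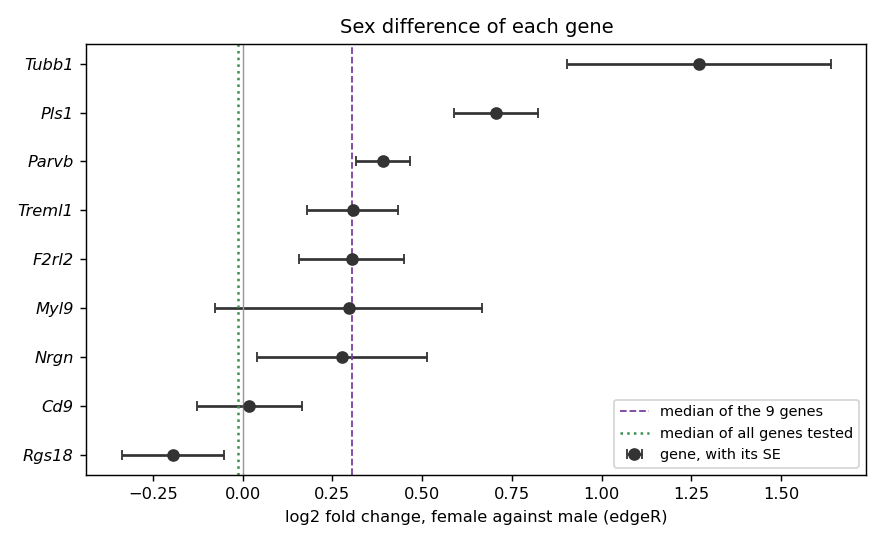
Log2 fold change of each of the 9 genes, female against male, on the x axis, with bars for its SE from the edgeR fit. Tubb1 has the highest value at 1.27, and Rgs18 alone lies below 0, at -0.19. The dashed line is the median of the 9 genes (0.30) and the dotted line that of all genes tested (-0.01).

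F2rl2, Treml1 and Cd9 encode proteins of the cell surface. F2rl2 encodes protease-activated receptor 3, which in mouse platelets serves as a cofactor that helps thrombin cleave another receptor of its family. It lies on chromosome 13 (95696853 to 95702739, plus strand, GRCm38). Its level was 50.2, 55.0, 43.9, 33.0 and 35.6 CPM in female replicates 1 to 5, and 32.5, 32.7, 31.4, 39.9 and 39.9 CPM in male replicates 1 to 5. Female replicates 1, 2 and 3 lay above all males, while female replicates 4 and 5 lay within the male range. The log2 fold change was 0.30 (SE 0.15), and 0.23 without male replicates 1 and 2. F2rl2 lies inside the span of Iqgap2, a gene on the opposite strand that was itself at 133 ± 11.2 CPM in female mice against 110 ± 25.4 CPM in male mice (SD, n = 5 each). Whether strand was used in the counting is not stated, so reads of unspliced Iqgap2 RNA cannot be told apart from those of F2rl2.

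The F2rl2 promoter is printed because it held matches to 3 of the 5 motifs searched, more than any other promoter of the set. The window runs from 250 bases before to 50 after the start site (RefSeq, GRCm38.p6, chr13:95696670-95696969, plus strand), and capitals mark the matches.
F2rl2: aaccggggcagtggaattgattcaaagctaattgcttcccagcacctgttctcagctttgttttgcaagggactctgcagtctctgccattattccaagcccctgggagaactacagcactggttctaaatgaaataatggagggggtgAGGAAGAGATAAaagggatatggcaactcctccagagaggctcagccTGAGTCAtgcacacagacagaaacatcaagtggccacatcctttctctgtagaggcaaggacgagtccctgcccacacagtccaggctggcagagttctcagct
The motifs were searched on both strands: AGATAA for GATA factors, AGGAAG for ETS factors, TGTGGT for RUNX factors, TGACTCA for NF-E2 (also the core of AP-1 sites), and the CArG box of serum response factor. In F2rl2 the ETS match (-101 to -96, counted from 0 at the start site) directly adjoined the GATA match (-95 to -90) without sharing a base, and the NF-E2 match lay on the reverse strand at -54 to -48. Over 32817 promoter windows of the same length, the GATA motif was found in 11.2%, the ETS motif in 35.4%, the RUNX motif in 16.8%, the NF-E2 motif in 5.2% and the CArG box in 1.63%. Windows were found for 8 of the 9 genes, all but Rgs18. The GATA and NF-E2 motifs were found in F2rl2 alone, the ETS motif in F2rl2, Cd9 and Tubb1, the CArG box in Myl9, and the RUNX motif in 0 of the 8.

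Treml1 encodes a receptor stored in platelet alpha-granules and brought to the surface on activation, with an inhibitory tyrosine motif in its tail (chromosome 17: 48359916 to 48367176, plus strand). Female replicates 1 to 5 had 53.7, 68.0, 70.4, 56.4 and 54.6 CPM, and male replicates 1 to 5 had 48.2, 62.6, 46.4, 41.0 and 47.0 CPM. The groups overlapped through male replicate 2 alone, and the other 4 males lay below all females. Without male replicates 1 and 2 the log2 fold change was 0.43, against 0.31 (SE 0.13) with all mice.

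Cd9 encodes a tetraspanin, a membrane organiser that is abundant on platelets and also found on stem cells (chromosome 6: 125460266 to 125494791, minus strand). It was at 75.9, 93.3, 89.3, 90.9 and 82.1 CPM in female replicates 1 to 5, and at 105, 110, 73.4, 72.6 and 66.0 CPM in male replicates 1 to 5. Male replicates 1 and 2 lay above all females and the other 3 males below all females. The log2 fold change was 0.02 (SE 0.15) with all mice and 0.29 without male replicates 1 and 2. Cd9 also changed sign in 5 of the 16 alternative settings, with a lowest value of -0.06.

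Rgs18 and Nrgn act inside the cell. Rgs18, on chromosome 1 (144752683 to 144775435, minus strand), encodes a GTPase-activating protein of platelets that shortens signalling by G proteins. Its level was 56.1, 57.8, 58.8, 73.8 and 61.6 CPM in female replicates 1 to 5, and 90.2, 83.6, 62.7, 60.2 and 55.9 CPM in male replicates 1 to 5. Male replicates 1 and 2 were the highest of all 10 mice, and the groups otherwise overlapped. Rgs18 was the one gene with a negative log2 fold change, -0.19 (SE 0.14), which was 0.05 without male replicates 1 and 2.

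Nrgn encodes neurogranin, a small protein that binds calmodulin, best known from neurons and also found in platelets (chromosome 9: 37544492 to 37552904, minus strand). Female replicates 1 to 5 had 63.6, 72.2, 89.7, 115 and 115 CPM, and male replicates 1 to 5 had 84.5, 116, 69.8, 57.0 and 48.7 CPM. The groups overlapped, with the highest value of all in male replicate 2. Its log2 fold change of 0.28 (SE 0.24) was 0.16 when male replicate 5 was left out, 0.49 without male replicate 2, and 0.63 with male replicates 1 and 2 both left out.

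Parvb encodes beta-parvin, which joins integrin-linked kinase to actin (chromosome 15: 84232043 to 84315688, plus strand). It was at 176, 204, 204, 189 and 186 CPM in female replicates 1 to 5, and at 144, 141, 140, 158 and 147 CPM in male replicates 1 to 5. Every female lay above every male, by a gap smaller than the range within either sex. The groups did not overlap in this direction for 1.06% of all genes tested. The log2 fold change was 0.39 (SE 0.08), between 0.36 and 0.42 over 16 alternative settings, with 0.36 when male replicates 1 and 2 were left out.

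Pls1 encodes plastin 1, a protein that bundles actin filaments (chromosome 9: 95752642 to 95845311, minus strand). It had 12.2, 17.0, 15.5, 16.8 and 12.98 CPM in female replicates 1 to 5, and 9.15, 9.50, 8.58, 9.22 and 9.20 CPM in male replicates 1 to 5. Again every female lay above every male, and the 5 males lay within 1.11-fold of each other while the females spanned 1.39-fold. Pls1 was the least abundant of the 9 genes, with between 183 and 411 counts per library. Its log2 fold change was 0.71 (SE 0.12), and 0.72 without male replicates 1 and 2.

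Myl9 encodes the regulatory light chain of myosin in smooth muscle and megakaryocytes (chromosome 2: 156775420 to 156781658, plus strand). Female replicates 1 to 5 had 24.9, 37.5, 45.8, 60.4 and 48.7 CPM, and male replicates 1 to 5 had 41.8, 69.6, 29.3, 23.8 and 12.8 CPM. The male values spanned 5.45-fold and covered the female values on both sides. The log2 fold change of 0.30 (SE 0.37) was 0.08 when male replicate 5 was left out, 0.70 without male replicate 2, and 0.98 with male replicates 1 and 2 both left out. Of 8 smooth muscle markers 7 averaged under 0.5 CPM over the 10 mice (Acta2, Tagln, Cnn1, Myh11, Actg2, Des and Lmod1), and Smtn made up 94.3% of their summed level. In single mice Acta2 reached 2.64 CPM in male replicate 1 and 0.675 CPM in male replicate 2, the mouse with the highest Myl9, and Actg2 reached 0.580 CPM in female replicate 4. The part of smooth muscle RNA in the Myl9 values was not tested. The Myl9 window is shown for its CArG box at -161 to -152 (RefSeq, GRCm38.p6, chr2:156775214-156775513, plus strand).
Myl9: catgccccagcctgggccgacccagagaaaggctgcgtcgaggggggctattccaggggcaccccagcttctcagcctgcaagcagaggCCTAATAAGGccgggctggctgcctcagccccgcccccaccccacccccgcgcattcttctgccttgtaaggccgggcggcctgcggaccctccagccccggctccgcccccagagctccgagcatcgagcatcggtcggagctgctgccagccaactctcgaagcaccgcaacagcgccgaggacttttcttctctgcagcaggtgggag

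Tubb1 encodes beta-1 tubulin, the tubulin isotype of megakaryocytes and platelets that forms proplatelet microtubules and the platelet's marginal band (chromosome 2: 174450695 to 174457882, plus strand). Its level was 38.6, 74.9, 112, 142 and 134 CPM in female replicates 1 to 5, and 67.4, 22.2, 47.3, 45.8 and 24.8 CPM in male replicates 1 to 5. Female replicates 2 to 5 lay above all males, and female replicate 1 lay below 3 of the 5 males. The log2 fold change was 1.27 (SE 0.37), the highest of the 9 genes, and lay between 1.11 and 1.51 over the alternative settings, with 1.35 when male replicates 1 and 2 were left out. The Tubb1 window is shown as that of the gene with the highest fold change, with 1 ETS match at -106 to -101 (RefSeq, GRCm38.p6, chr2:174450345-174450644, plus strand).
Tubb1: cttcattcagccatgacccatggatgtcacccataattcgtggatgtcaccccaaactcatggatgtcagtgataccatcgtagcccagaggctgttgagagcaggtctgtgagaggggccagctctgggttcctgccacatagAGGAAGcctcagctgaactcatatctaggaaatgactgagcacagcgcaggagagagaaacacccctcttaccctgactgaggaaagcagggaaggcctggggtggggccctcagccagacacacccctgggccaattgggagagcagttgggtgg

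**Figure D2:**
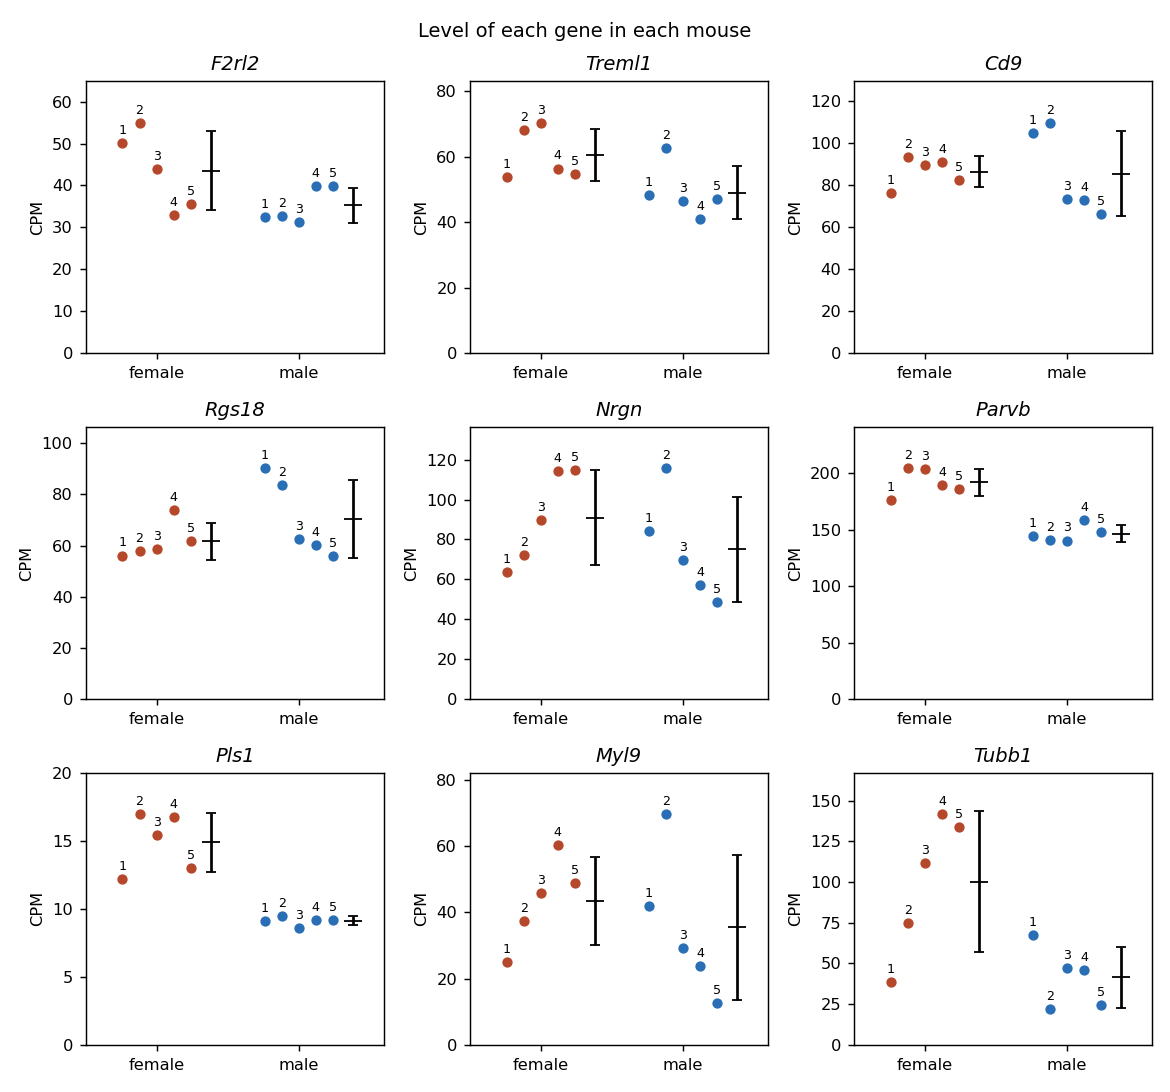
Level of each gene in CPM (y axis, from 0) in each of 5 female and 5 male mice (x axis), with the replicate number above each point and the mean with SD at the right of each group. Parvb and Pls1 separate the sexes without overlap. The male values of Myl9 run from 12.8 to 69.6 CPM, and the Tubb1 values from 22.2 to 142 CPM over both sexes.

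Variation among mice of 1 sex differed widely between the 9. It may not be independent of the choice of genes, since a difference between the sexes is clearer where this variation is small. The SD of log2 CPM within sex was 0.73 for Tubb1 and 0.73 for Myl9, each at percentile 98.5 of the 10300 genes with a mean of at least 5 CPM, and 0.44 for Nrgn (percentile 93.0). The median gene had 0.21. Parvb was among the steadiest genes, with an SD of 0.08 at percentile 3.91, and Pls1 followed with 0.16 at percentile 28.5. Treml1 (0.21), Rgs18 (0.24), Cd9 (0.25) and F2rl2 (0.25) were near the median gene.

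Within each sex the genes did not move as 1 block. Female replicate 1 was the lowest female for 8 of the 9 genes, all but F2rl2, for which female replicate 4 was lowest. Among males, replicate 5 was lowest for Cd9, Rgs18, Nrgn and Myl9, and replicate 3 for F2rl2, Parvb and Pls1. Male replicate 2 was the highest male for Treml1, Cd9, Nrgn, Pls1 and Myl9, yet the lowest for Tubb1. In that mouse Myl9 was 1.19 above the male mean on the log2 scale and Tubb1 0.78 below it (-0.78).

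The likeness of 2 profiles was measured as the root mean square difference of log2 CPM centred within each sex and scaled to unit SD, over 10 mice. Of the 36 pairs, Nrgn and Myl9 were nearest (0.322), followed by Cd9 with Rgs18 (0.487), Cd9 with Myl9 (0.523) and Rgs18 with Myl9 (0.547). Parvb and Pls1 had 0.847. F2rl2 was the most distant from Nrgn (1.90), Myl9 (1.81), Rgs18 (1.80) and Tubb1 (1.79), the 4 widest of the 36 values.

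**Figure D3:**
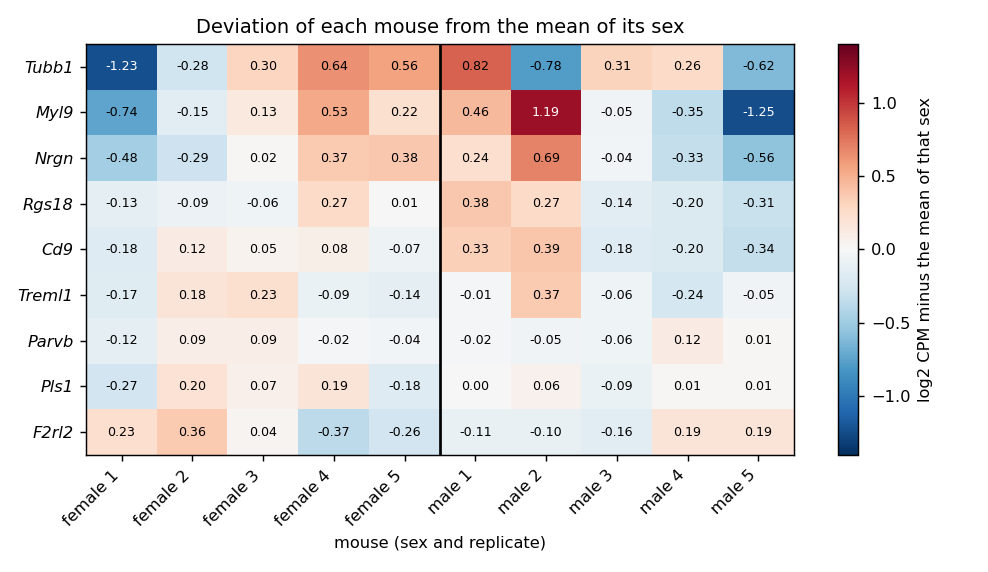
Log2 CPM of each gene (rows) in each mouse (columns, females left of males) minus the mean of that sex, as colour and number. Female replicate 1 is below the female mean for 8 of 9 genes, down to -1.23 for Tubb1, and male replicate 2 combines 1.19 for Myl9 with -0.78 for Tubb1.

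The summed level of stromal markers, mostly Col1a1 and Col1a2, ran the other way in some of these mice. Of this sum over 9 genes, 52.5% came from Col1a1 and 37.8% from Col1a2. It was 2511, 1535, 477, 326 and 980 CPM in female replicates 1 to 5, and 486, 386, 475, 868 and 2791 CPM in male replicates 1 to 5. The highest stromal sum of each sex was thus in female replicate 1 and male replicate 5. Both mice were the lowest of their sex for Cd9, Rgs18, Nrgn and Myl9. Tubb1 was lowest in female replicate 1 and male replicate 2. The part of stromal RNA in these values was not tested. The megakaryocyte identity sum was lowest in female replicate 1 among females (1683 CPM) but 1423 CPM in male replicate 5, the second highest of the 5 males.

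Set against the identity sum of the same mouse, the genes also parted. Treml1 stood at 3.14% ± 0.0931 of that sum in females and 3.44% ± 0.410 in males, and Parvb at 9.97% ± 0.556 in females against 10.3% ± 0.778 in males (SD, n = 5 each). Rgs18 stood at 3.23% ± 0.568 in females and 4.95% ± 0.997 in males, and Cd9 at 4.49% ± 0.316 in females and 5.97% ± 1.23 in males. Tubb1 stood at 5.22% ± 2.41 in females and 2.96% ± 1.39 in males. Without male replicates 1 and 2 the male means were 3.24% for Treml1, 10.7% for Parvb, 4.31% for Rgs18, 5.11% for Cd9 and 2.86% for Tubb1, so that Rgs18 and Cd9 came nearer to the females and Parvb went further from them. These shares are a description, since they rest on the contrast that chose the genes.

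The 10 genes whose profile within sex was nearest to the mean of the 9 were Alox12, Sms, Cald1, Fhl1, Slamf1, Mpig6b, Tpm4, Myct1, Cd226 and Pcp4l1. Their root mean square differences ran from 0.167 for Alox12 to 0.369 for Pcp4l1, where the median gene had 1.44. Of the 14 identity genes, 3 were among the nearest 100 of the 10300 genes compared, with Mpig6b at rank 6. Genes with a mean under 5 CPM, Gp1bb among them, were not ranked. For single genes, the nearest profile was that of Gp5 for Parvb (0.401), Mmp19 for Tubb1 (0.213), Tmem192 for Myl9 (0.207), Ctla2a for Nrgn (0.215) and Serping1 for Rgs18 (0.118). The 10 mice share the differences between libraries described above.

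In both sexes Tubb1, Pls1, Parvb, Rgs18 and Cd9 each had a relative with more transcripts per length on average. In males F2r, at 16.9 ± 3.69 CPM per kilobase, also lay above F2rl2, at 14.1 ± 1.70. Tubb1 made up 5.59% ± 2.43 of the transcripts of 8 beta-tubulin genes in females and 2.38% ± 1.13 in males (per length, SD, n = 5 each). The ubiquitous isotypes Tubb5 (49.0% in females and 51.5% in males) and Tubb4b (40.3% in females and 41.3% in males) made up most of the rest. Tubb2a had 51.9 ± 6.43 CPM per kilobase in females and 49.4 ± 6.56 in males, and its log2 fold change was 0.07 (SE 0.11, edgeR adjusted p = 0.748), and 0.16 without male replicates 1 and 2.

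Among the plastins, Pls1 made up 13.8% ± 3.19 in females and 7.23% ± 1.70 in males, and the leukocyte plastin gene Lcp1 84.3% in females and 91.3% in males. Parvb and Parvg, the parvin of blood cells, were near each other: Parvb made up 46.4% ± 3.73 of the 3 parvins in females and 38.1% ± 3.84 in males, and Parva at most 0.141% in any mouse. Myl9 made up 60.7% ± 7.18 of the transcripts of 3 regulatory light chain genes in females and 47.1% ± 9.70 in males. Myl12a made up 35.1% ± 7.38 of them in females and 47.4% ± 8.23 in males. Myl9, Myl12a and Myl12b have similar coding sequences, as have the beta-tubulins, so their split is uncertain to the extent that reads matched more than 1 gene.

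F2rl2 and F2r, the gene of protease-activated receptor 1, had like shares in females. F2rl2 made up 38.5% ± 2.96 of the 4 genes of this receptor family in females and 36.2% ± 5.10 in males, F2r 38.5% in females and 42.5% in males, F2rl3 22.8% in females and 21.1% in males, and F2rl1 0.210% in females and 0.247% in males. Rgs10 exceeded Rgs18 in both sexes, with 61.2% of the 5 RGS genes compared in females and 60.3% in males, while Rgs18 held 33.7% in females and 33.3% in males. Cd9 made up 20.5% ± 2.12 of 5 tetraspanin genes in females and 18.5% ± 3.12 in males, behind Cd82 and Cd81. Treml1 held 76.5% ± 4.81 of 5 genes of the TREM family in females and 74.0% ± 5.35 in males. Without male replicates 1 and 2 the male mean was 33.6% for F2rl2, 43.2% for F2r and 16.3% for Cd9. Likewise it was 42.2% for Myl9 and 51.1% for Myl12a. In the same 3 males it was 2.23% for Tubb1, 7.58% for Pls1, 38.2% for Parvb, 33.4% for Rgs18 and 73.5% for Treml1. The mean F2rl3 share of these 3 males was not below that of the females. The neuronal gene Gap43, which shares the calmodulin-binding motif of Nrgn, had 4 counts over all libraries.

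**Figure D4:**
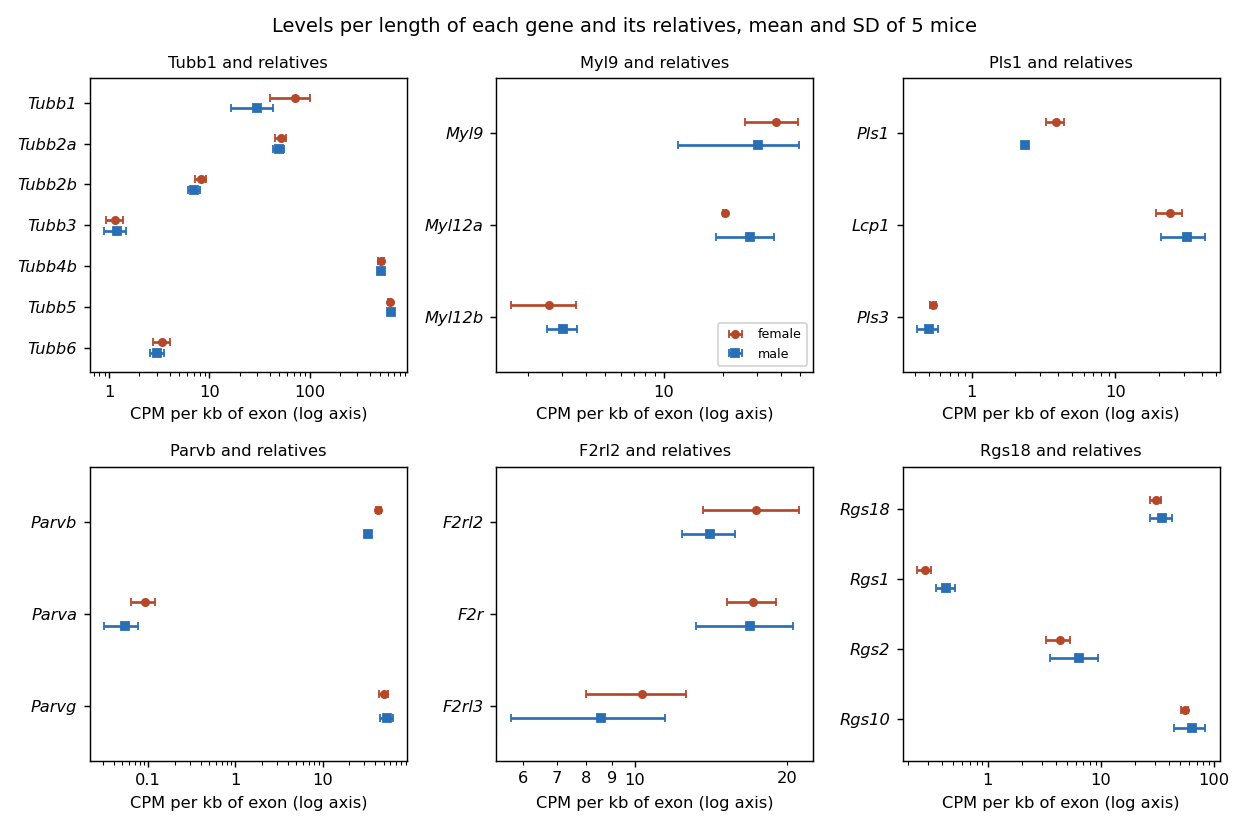
Level per length (CPM per kilobase of exon, log x axis) of 6 of the genes and of their relatives with at least 100 counts, as mean with SD of 5 females (circles) and 5 males (squares). Tubb5 and Tubb4b lie far to the right of Tubb1, at 626 and 516 CPM per kilobase in females against 71.3 for Tubb1, while Parvb and Parvg lie close together.

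The relatives were taken by gene family, with earlier results of these data known, so they are not an independent comparison set. Of 25 tested, 0 passed edgeR's adjusted test, where 0.0545% of all genes did, and DESeq2 called 0, where it called 0.337% of its genes. An unadjusted p under 0.05 was found for 6, of which 1 was higher and 5 lower in females, where 9.17% of all genes had one. A positive log2 fold change was found for 9 (median -0.05), where 48% of all genes had one. Without male replicates 1 and 2 the unadjusted counts were 2 higher and 1 lower, and 11 values were positive (median -0.07). Closest to Pls1 and Parvb, the values were -0.39 for Lcp1, 0.11 for Pls3, -0.11 for Parvg and 0.74 for Parva. Leaving out 1 library at a time gave -0.49 to -0.16 for Lcp1, 0.04 to 0.17 for Pls3, -0.19 to -0.03 for Parvg and 0.55 to 1.01 for Parva. The Lcp1 value nearest to 0 was the one without male replicate 1, in which Lcp1 stood at 479 CPM, against at most 286 CPM in the other males. Leaving out male replicates 1 and 2 together gave -0.20 for Lcp1. The difference between the fold change of a gene and that of its relatives was not tested.

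A wider set of 137 genes of the same pathways was followed in 8 lists. By edgeR 0 of the 127 tested passed in either direction, where 0.0545% of all genes passed. DESeq2 called 2, Adra2a (adjusted p = 0.0335) and Tspan9 (adjusted p = 0.0108), both higher in females. It called 0.337% of its genes in either direction and 0.219% higher in females. These shares, and the 48% of all genes with a positive value, are the comparison for each list below. At an unadjusted p under 0.05, 16 were higher (12.6%) and 15 lower in females (11.8%), where all tested genes gave 3.76% higher and 5.41% lower. Without male replicates 1 and 2 the counts were 17 higher and 4 lower, where all genes gave 3.65% higher and 1.94% lower. The median log2 fold change of the set was 0.01, and 0.03 without these 2 mice.

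Platelet receptors of soluble agonists and their signalling genes had positive values for 27 of 33 (median 0.18), and for 24 (median 0.10) without male replicates 1 and 2. By edgeR 0 passed, while DESeq2 called 1. That gene was Adra2a, the platelet adrenaline receptor gene, at 3.14 ± 0.698 CPM in female mice against 1.66 ± 0.332 CPM in male mice (log2 fold change 0.92, SE 0.21, edgeR adjusted p = 0.363). The kinase gene Src was at 24.4 ± 4.67 CPM in female mice against 14.9 ± 4.27 CPM in male mice, and Rasa3, which restrains Rap1 in platelets, at 130 ± 15.4 CPM in females and 95.6 ± 14.9 in males (edgeR adjusted p = 0.506 for both). Src had a log2 fold change of 0.71 with all mice and 0.47 without male replicates 1 and 2. Without them Adra2a had one of 0.82 and Rasa3 one of 0.39 (0.44 with all mice).

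Of 13 integrin linkage genes 8 had positive values (median 0.08), and 0 passed by edgeR or DESeq2. Fermt3, which encodes the integrin activator kindlin-3, was at 545 ± 23.7 CPM in female mice against 475 ± 40.3 CPM in male mice, without overlap. Such a lack of overlap, with females higher, was found for 1 of these 13 genes and for 1.06% of all genes. Itgb1bp1, which binds the tail of beta-1 integrin, was at 16.6 ± 0.885 CPM in females and 20.3 ± 4.93 in males. The edgeR adjusted p was 0.506 for both Fermt3 and Itgb1bp1. Their log2 fold changes were 0.20 for Fermt3 and -0.29 for Itgb1bp1 with all mice, and 0.12 for Fermt3 and -0.03 for Itgb1bp1 without male replicates 1 and 2.

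Of 14 other tubulin genes 4 were positive (median -0.02), 0 passed by either tool and 0 had an unadjusted p under 0.05. The smallest p was that of Tubb2b, at 18.8 ± 2.47 CPM in females and 16.3 ± 2.13 in males (edgeR adjusted p = 0.507). The list had 7 positive values (median 0.00) without male replicates 1 and 2. The log2 fold change of Tubb2b was 0.21 with all mice and 0.29 without them.

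Of 28 actin and myosin genes 13 were positive (median -0.05), and 0 passed by either tool. At an unadjusted p under 0.05, 2 were higher and 4 lower in females, and without male replicates 1 and 2 the counts were 4 higher and 0 lower. The myosin light chain kinase gene Mylk was at 16.0 ± 2.91 CPM in females and 11.2 ± 1.49 in males, and the myosin heavy chain gene Myh10 at 228 ± 29.2 CPM in female mice against 144 ± 54.4 CPM in male mice (edgeR adjusted p = 0.506 for both). Myl12a, a light chain relative of Myl9, was at 68.9 ± 1.17 CPM in female mice against 92.7 ± 30.3 CPM in male mice (edgeR adjusted p = 0.506). Myh10 had a log2 fold change of 0.66 with all mice and 0.32 without male replicates 1 and 2, and Myl12a one of -0.43 with all mice and -0.09 without them. Mylk had one of 0.52 with all mice and 0.65 without them.

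All 7 other RGS genes tested had negative values (median -0.42), as Rgs18 had, and 0 passed by edgeR or DESeq2. Of the 7, 2 were positive (median -0.13) when male replicates 1 and 2 were left out. Rgs1 was at 1.94 ± 0.281 CPM in female mice against 2.998 ± 0.580 CPM in male mice, with every female below every male (edgeR adjusted p = 0.506), a pattern found for 0.865% of all genes. Rgs19 was at 26.6 ± 4.43 CPM in females and 35.4 ± 9.28 in males, and Rgs14 at 8.10 ± 1.12 CPM in females and 10.9 ± 3.13 in males (edgeR adjusted p = 0.506 for both). Leaving out male replicates 1 and 2 gave a log2 fold change of -0.63 for Rgs1 (-0.62 with all mice), -0.13 for Rgs19 (-0.41 with all mice) and -0.25 for Rgs14 (-0.42 with all mice).

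Of 14 other tetraspanins 7 were positive (median -0.02), and without male replicates 1 and 2 there were 4 (median -0.07). Tspan9, a platelet tetraspanin and the gene of this list called by DESeq2, was at 14.9 ± 3.21 CPM in female mice against 8.10 ± 2.17 CPM in male mice (log2 fold change 0.88, SE 0.20, edgeR adjusted p = 0.358). The leukocyte tetraspanin gene Cd37 was at 62.1 ± 4.91 CPM in females and 74.8 ± 5.88 in males, and Cd53 at 38.1 ± 8.32 CPM in females and 60.5 ± 26.3 in males (edgeR adjusted p = 0.506 for both). Cd53 had a log2 fold change of -0.67, and -0.27 without male replicates 1 and 2. Without them Tspan9 had one of 1.08 and Cd37 one of -0.19 (-0.27 with all mice).

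Of 10 inhibitory and TREM family receptor genes with their phosphatases 4 were positive (median -0.48), and 0 passed by either tool. In the fit without male replicates 1 and 2 it had 5 positive values (median -0.03). Mpig6b, an inhibitory receptor of megakaryocytes, was at 19.8 ± 3.83 CPM in female mice against 13.5 ± 3.13 CPM in male mice, and Trem3 at 7.01 ± 0.952 CPM in females and 15.5 ± 10.4 in males (edgeR adjusted p = 0.506 for both). Ptpn6, the gene of the phosphatase SHP-1, was at 112 ± 8.81 CPM in female mice against 135 ± 21.3 CPM in male mice (edgeR adjusted p = 0.506). Trem3 had a log2 fold change of -1.14 with all mice and -0.45 without male replicates 1 and 2, and Ptpn6 one of -0.26 with all mice and -0.10 without them. Mpig6b had one of 0.56 with all mice and 0.79 without them. The summed neutrophil markers were also wider in males, at 274 to 993 CPM in females and 216 to 9087 CPM in males, and the part of neutrophil RNA in the Trem3 values was not tested.

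Of 8 calmodulin and IQ motif genes 4 were positive (median 0.00), and without male replicates 1 and 2 there were 5 (median 0.02). Camkk2, the gene of a kinase that calmodulin activates, was at 56.9 ± 4.03 CPM in female mice against 47.1 ± 8.25 CPM in male mice (edgeR adjusted p = 0.506), a log2 fold change of 0.27 with all mice and 0.13 without these 2.

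The megakaryocyte identity list had positive values for 13 of 13 (median 0.45, and 0.44 without male replicates 1 and 2), where 48% of all genes were positive. By edgeR 0 passed, while DESeq2 called 4 of the 13, all higher in females, where it called 0.219% of its genes higher. An unadjusted p under 0.05 with a higher female level was found for 9, where 3.76% of all genes had one. The list is known from earlier results of these data and is not independent evidence of its direction. Of the 4 most abundant, Pf4, at 240 ± 55.7 CPM in females and 234 ± 51.8 in males, had the smallest log2 fold change, 0.04. The Pf4 value was 0.18 without male replicate 2, which had 324 CPM, -0.08 without female replicate 2, and 0.15 without male replicates 1 and 2. A positive direction was not particular to the identity list. All 9 endothelial markers were positive too (median 0.52, and 0.40 without male replicates 1 and 2), and 2 had an unadjusted edgeR p under 0.05.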

How the data were processed

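Total RNA of lineage-depleted bone marrow from 10 mice was sequenced. The authors deposited raw read counts per gene and a normalized table of the same libraries, which was not used here. Per the submitters' processing notes, alignment and counting involved STAR and featureCounts, DESeq was used, and the builds were GRCm38.p6 and mm10. For versions, library kit and strand setting, the sources used here give nothing. Of 25178 genes, 25116 were found by identifier in GENCODE vM21, which gave symbols, coordinates and exonic lengths.

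Counts were filtered with filterByExpr by sex, scaled by TMM and fitted with edgeR 4.0.16 (robust quasi-likelihood, R 4.3.3) with sex as the only term. Benjamini-Hochberg adjustment ran over 14674 genes, with calls at an adjusted p under 0.05. The SE is the fold change over the square root of F. Levels are CPM over the TMM-scaled total, and CPM per kilobase of exon. Log2 CPM used a prior count of 2. Libraries held 20754101 to 24759687 counts, and PCR copies were not told apart. DESeq2 1.42.0 served as an alternative. The procedure was tested on simulated data.

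The genes and lists were chosen with earlier results of these data known. Named genes are the 9, their relatives, up to 3 per pathway list by smallest p, the 4 most abundant identity genes and the 10 nearest profiles. Other names, among them Iqgap2, Smtn, the collagen genes and the nearest profiles of single genes, were added after values were seen. Some genes that the rule takes are left out of the text. Nothing states that replicate numbers pair mice.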

Additional observations from a re-analysis of the deposited data

Results flagged for a closer look

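None of the 9 genes had a single mouse far from the other 4 of its sex. Among 58 genes examined in both sexes (116 groups of 5), 10 groups had 1 mouse whose gap to the nearest other exceeded 0.71 of the whole range (Dixon's criterion), which chance gives in about 1 in 20 groups. All 10 were males with high values. Male replicate 1 stood out for Treml4 (1.93 CPM, the other males at most 0.561), Trem1 (10.8 CPM, others at most 3.84), Lcp1 (479 CPM, others at most 286), Rgs14 (16.3 CPM, others at most 10.3) and Cd53 (106 CPM, others at most 58.9). Male replicate 2 stood out for Rgs10 (168 CPM, others at most 103), Myl12b (4.78 CPM, others at most 3.65), Tubb2a (98.3 CPM, others at most 76.1), Tubb2b (20.0 CPM, others at most 16.0) and Pf4 (324 CPM, others at most 225).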

How the results depend on the processing

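The median log2 fold change of the 9 genes kept its sign and moved by less than the SD between mice in all 16 alternatives, and 0 of the 9 were called in any of the 15 edgeR alternatives. Over 144 recomputed values of single genes, 1 moved by more than its SD within sex: Cd9, at 0.29 without male replicates 1 and 2. Without them all 9 values were positive. The count of genes called over the whole table was 8, between 6 and 10 when 1 library was left out, and 60 by DESeq2. DESeq2 also called 2 genes of the pathway lists, against 0. With the replicate number as a block 5 genes were called over the whole table. Deviations of female and male mice with the same number correlated between -0.302 and -0.00710 across genes, and 0 of 5 females correlated best with the male of the same number, so the numbers were not taken to pair mice. The cause of these changes was not tested. With 5 mice per sex and an SD within sex of 0.73 on the log2 scale, Tubb1 and Myl9 have the widest SE of the 9 genes (0.37 each).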
